A study of Mus musculus with 6 samples.

Results

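NF-κB is a family of transcription factors that reads out cytokine, pathogen and stress signals, and 10 genes for its subunits, inhibitors and activating kinases were followed here in mouse embryonic stem cells. The members were taken by symbol: the subunits Rela, Relb, Rel, Nfkb1 and Nfkb2, the inhibitors Nfkbia, Nfkbib and Nfkbie, and the kinases Ikbkb and Chuk. All 10 were found in the deposited isoform table, with 100 of its 181027 isoforms. All 100 were among the 141569 isoforms used here, which cover 31310 genes. All 10 reached a mean of 1 FPKM, a level scaled by transcript length and library total, in both conditions, so none entered the test through 1 condition only. Rel and Nfkbie did so narrowly, at means of 1.0008 and 1.007 FPKM with doxycycline.

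The cells were TT-FHAgo2, a clonal line in which doxycycline sets the level of Ago2, an Argonaute protein that loads microRNAs and binds the transcripts they pair with. The line was kept in 0.1 µg/mL doxycycline. PolyA RNA came from 2 libraries of cells taken off doxycycline for 96 h and from 2 libraries of cells brought to 2.5 µg/mL for 48 h, the dose that per the labels gives wild-type Ago2 levels. Both conditions share the clone, the transgene, the serum and LIF medium and the earlier low dose. The labels do not state which Argonaute alleles the line carries or whether the libraries of a condition were separate cultures, so the p-values measure the spread between libraries, which may be technical. The Ago2 level, the presence of doxycycline and the time in the condition cannot be told apart. A spike-in library of the line and one of mesenchymal stem cells were not analysed here.

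In resting cells, dimers of the subunits are held in the cytoplasm by inhibitor proteins of the IκB family. In the canonical pathway, receptors for TNF, interleukin-1 or microbial products switch on the IκB kinase complex, the inhibitor is phosphorylated and degraded, and dimers such as those with RelA enter the nucleus. In the non-canonical pathway, the kinase encoded by Chuk drives the processing of the p100 precursor encoded by Nfkb2, which frees RelB. Several of the genes for subunits and inhibitors are themselves textbook targets of NF-κB. In mouse embryonic stem cells the pathway is known to be little active, and the miR-290 family of microRNAs is abundant there.

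The microRNA sequences below are shown because the line was built to change the level of the protein that uses them. They are the mature mouse sequences of RefSeq (GRCm38.p6), 5′ to 3′, with the seed (bases 2 to 8) in capitals. The first pair share 1 seed, and that of miR-17-5p shares AAGUGC with it, moved by 1 base.
miR-291a-3p: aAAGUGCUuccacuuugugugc
miR-302b-3p: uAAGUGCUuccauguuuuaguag
miR-17-5p: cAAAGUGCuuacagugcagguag
miR-291b-5p: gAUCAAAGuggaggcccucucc
miR-293-3p: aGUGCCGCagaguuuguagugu
miR-155-5p: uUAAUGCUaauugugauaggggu

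Sites of 7 or 8 bases for these seeds were looked for in 3′ untranslated regions (the longest per gene in GENCODE M21), and 4 of the 10 members held one. The share of all genes with a site for any of these seeds was not computed, and the shares given below are for single microRNAs. A 7mer-m8 matches the seed, a 7mer-A1 matches its first 6 bases followed by an A, and an 8mer has both. The longest match of each gene to each microRNA is shown with its flanks, as DNA 5′ to 3′ with the match in capitals.
Ikbkb, miR-291a-3p and miR-302b-3p, 7mer-m8: atgcaggtacaAGCACTTgcagcagcgac
Ikbkb, miR-17-5p, 8mer: actacttgcttGCACTTTAgccagagaaaa
Rel, miR-291b-5p, 8mer: accctgaggctCTTTGATAcccaaagctgt
Chuk, miR-291b-5p, 8mer: gacttttgtgcCTTTGATAtcagctgacca
Rela, miR-293-3p, 7mer-m8: atctctctgggGCGGCACgttttactctt
Rela, miR-155-5p, 8mer: gctttcgcaggAGCATTAAcctcctggaga

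The Ikbkb region was 1622 bases long, with the miR-291a-3p match at bases 1163 to 1169. Its miR-17-5p 8mer stood at bases 587 to 594, beside a 7mer-m8 at bases 371 to 377, and neither of these was in the shorter region of the transcript nearest to the most abundant Ikbkb isoform. The Rel region, of 5418 bases, held the 8mer at bases 2693 to 2700 and 7mer-A1 sites at bases 2079 to 2085 and 2624 to 2630. The Chuk 8mer was at bases 672 to 679 of 1236, and the Rela sites were at bases 124 to 130 and 171 to 178 of 714. Among 10141 tested genes with such a region, a site of at least 7 bases was held by 20.8% for miR-291a-3p, 22.2% for miR-17-5p, 22.2% for miR-291b-5p, 3.47% for miR-293-3p and 13.2% for miR-155-5p. A seventh microRNA, let-7a-5p, was searched too, with 0 members and 16.9% of these genes holding such a site. Relb, Nfkb1, Nfkb2, Nfkbia, Nfkbib and Nfkbie held no site of 7 or 8 bases for these microRNAs. These are matches of letters, and none was tested as a functional site.

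Promoters are shown for the members that were higher without doxycycline and had an entry in the RefSeq table (GRCm38.p6, 250 bases before to 50 after the start). Matches to the κB decamer consensus, the sequence class that NF-κB dimers bind, were searched on both strands and are in capitals. The windows are chr12:55492598-55492897 on the minus strand for Nfkbia, chr19:46304487-46304786 on the plus strand for Nfkb2, chr11:23770920-23771219 on the minus strand for Rel and chr19:5637291-5637590 on the plus strand for Rela.
Nfkbia: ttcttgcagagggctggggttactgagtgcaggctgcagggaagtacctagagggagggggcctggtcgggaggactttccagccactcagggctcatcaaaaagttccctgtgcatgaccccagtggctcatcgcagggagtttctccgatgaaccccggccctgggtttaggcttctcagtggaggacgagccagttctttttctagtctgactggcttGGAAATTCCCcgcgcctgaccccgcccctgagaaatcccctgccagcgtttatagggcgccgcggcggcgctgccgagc
Nfkb2: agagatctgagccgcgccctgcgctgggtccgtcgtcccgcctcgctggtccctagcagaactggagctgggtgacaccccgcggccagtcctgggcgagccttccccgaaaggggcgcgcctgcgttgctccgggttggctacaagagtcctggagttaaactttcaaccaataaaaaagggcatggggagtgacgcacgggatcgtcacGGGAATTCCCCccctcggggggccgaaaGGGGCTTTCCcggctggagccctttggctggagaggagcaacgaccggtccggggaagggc
Rel: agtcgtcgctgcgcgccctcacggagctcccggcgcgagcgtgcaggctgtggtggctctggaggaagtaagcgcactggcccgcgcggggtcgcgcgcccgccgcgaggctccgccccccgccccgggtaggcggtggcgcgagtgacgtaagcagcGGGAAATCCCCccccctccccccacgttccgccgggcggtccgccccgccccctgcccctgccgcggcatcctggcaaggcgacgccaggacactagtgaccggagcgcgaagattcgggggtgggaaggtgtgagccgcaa
Rela: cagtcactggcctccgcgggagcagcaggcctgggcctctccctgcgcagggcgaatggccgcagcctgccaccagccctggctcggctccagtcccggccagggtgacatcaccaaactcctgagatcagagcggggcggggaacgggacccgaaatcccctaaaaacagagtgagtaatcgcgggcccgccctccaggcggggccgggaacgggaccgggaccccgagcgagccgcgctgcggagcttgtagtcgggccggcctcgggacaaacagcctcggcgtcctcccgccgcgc

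The Nfkbia match, GGAAATTCCC, began 29 bases before the start. In the Nfkb2 window, GGGAATTCCC began 39 bases before the start, overlapped by a second match 1 base on, and GGGGCTTTCC began 11 bases before it. In the Rel window GGGAAATCCC began 92 bases before the start, again overlapped by a second match 1 base on. The Rela window held no match. Nfkb2 had 2 further annotated starts, whose windows overlapped and shared 1 match, GGGACTTTCC. It began 225 bases before the later start and at base 11 from the earlier start on. The window of the earlier start also held GGAATGTCCC, 236 bases before that start. Nfkbie held GGGGGATTCC 106 bases before its start. In all, 4 of the 7 members with an entry (Rela, Rel, Nfkb2, Nfkbia, Nfkbib, Nfkbie and Chuk) held a match, against 12.7% of 8146 tested genes with an entry and 8.46% of 32851 promoters of the table. A match describes letters only and was not tested for binding. Relb, Nfkb1 and Ikbkb were not matched to an entry.

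The libraries carry the numbers 0 and 1 in the files. FPKM of isoforms was summed per gene and tested on log2(FPKM + 0.5) with limma, two-sided, with Benjamini-Hochberg adjustment over all genes at 0.05. Log2 changes are without minus with doxycycline. Both libraries numbered 1 held whole reads at a step that put their depth near 46.6 M fragments without and 46.5 M with doxycycline, and the depth of the libraries numbered 0 is unknown. Among 13207 genes tested, 2608 were higher and 2809 lower without doxycycline, and the median change was -0.055. Scaling to TPM, which gives every library the same total, moved that median to 0.10 and the share of calls that were higher to 67.6%, from 48.1% as deposited. Setting the library medians equal made that share 38.0%. Ago2 RNA, listed under the older symbol Eif2c2, was 28.7 and 28.8 FPKM without doxycycline, against 35.2 and 36.7 FPKM with it, a log2 change of -0.32 (SE 0.08, limma adjusted p = 0.0287). Its level without doxycycline was thus still 0.799 of that with it, a value in which transcripts of the transgene and of the endogenous gene cannot be told apart, and the call was lost in 7 of 16 alternatives. All 10 embryonic stem cell markers were expressed in every library, 2 of them (Nanog and Fgf4) higher and 3 (Zfp42, Klf4 and Utf1) lower without doxycycline.

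Cells without doxycycline had more RNA for 4 of the 5 NF-κB subunits and for the inhibitor Nfkbia. In limma, 5 of the 10 members were higher (Rela, Relb, Rel, Nfkb2 and Nfkbia) and 0 were lower, where 41% of all genes tested were called, 19.7% higher and 21.3% lower. The other members, Nfkb1, Nfkbib, Nfkbie, Ikbkb and Chuk, did not pass. The members' median log2 change was 0.40, against -0.055 over all genes. In these bulk RNA samples, fewer cells expressing a gene and less RNA per cell cannot be told apart.

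**Figure D1:**
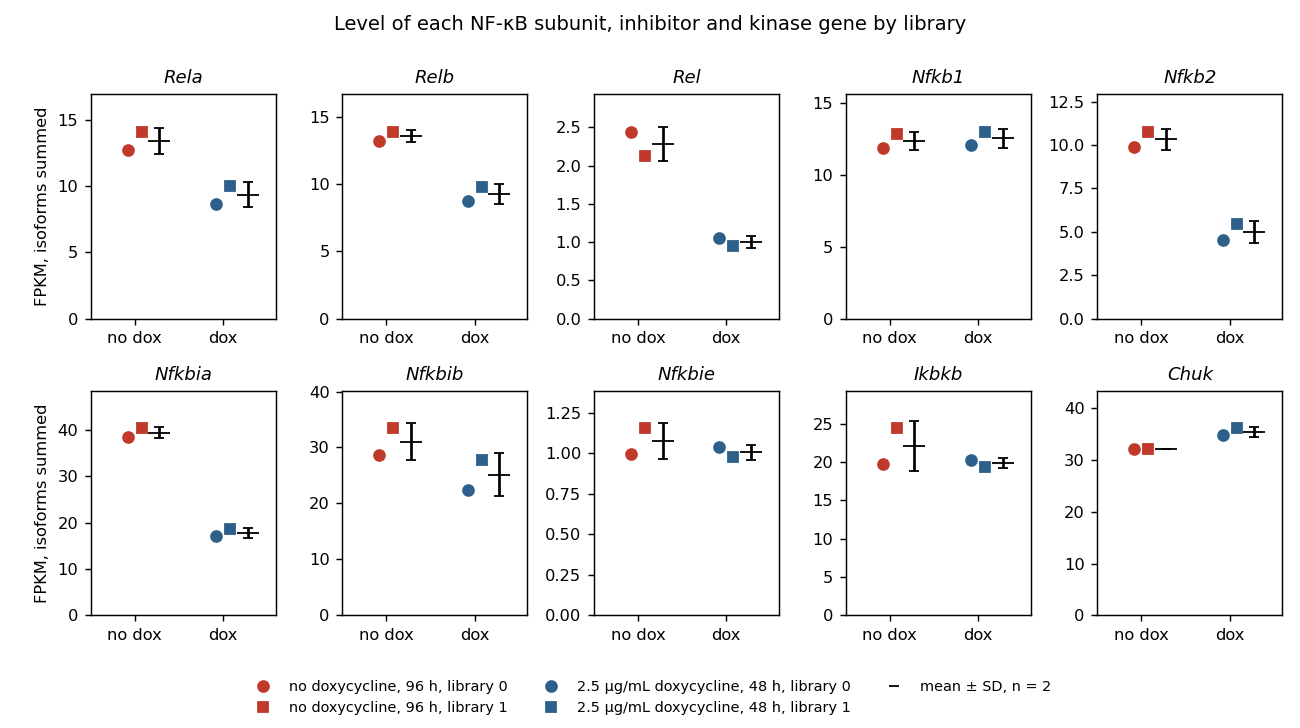
FPKM per gene (isoforms summed, linear axes from 0) in each library without doxycycline (red, left) and with it (blue, right), with circles for libraries numbered 0, squares for libraries numbered 1 and bars for mean ± SD (n = 2). Rela, Relb, Rel, Nfkb2, Nfkbia and Nfkbib lie higher in both libraries without doxycycline, Chuk lies lower, and Nfkb1, Nfkbie and Ikbkb overlap.

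Nfkb2 (chr19:46379187-46386613, plus strand, NCBIM37) encodes p100, an IκB-like precursor that is processed to the p52 subunit. It stood at 9.91 and 10.8 FPKM without doxycycline, against 4.54 and 5.44 FPKM with it. The means were 10.3 ± 0.610 FPKM without and 4.99 ± 0.636 FPKM with doxycycline (SD, n = 2 each), a ratio of 2.07. Both libraries without doxycycline were above both with it. The log2 change was 0.99 (SE 0.12, limma adjusted p = 0.00420), 1.05 between the libraries numbered 0 and 0.92 between those numbered 1. It passed in all 16 alternatives. Its exons shared 37 bases with Psd on the opposite strand, which ran from 0.452 to 0.690 FPKM.

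Rel (chr11:23640319-23671400, minus strand) encodes c-Rel, a transactivating subunit best known from lymphocytes, and was the least abundant subunit. It was at 2.44 and 2.13 FPKM without doxycycline, against 1.06 and 0.944 FPKM with it. The means, 2.28 ± 0.225 FPKM without and 1.00 ± 0.0802 FPKM with doxycycline (SD, n = 2 each), stood in a ratio of 2.28 and the libraries did not overlap. The log2 change of 0.89 (SE 0.13, limma adjusted p = 0.00679) understates the ratio because of the pseudocount at this low level. In the libraries of known depth, Rel rested on about 362 reads without and 162 reads with doxycycline. Its more abundant isoform alone did not pass (limma adjusted p = 0.130 in a fit of each gene's most abundant isoform, with a range of 0.00356 to 0.130 over the alternatives).

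Relb (chr7:20191339-20214857, minus strand) encodes RelB, the usual partner of p52 in the non-canonical pathway. Its level was 13.2 and 13.9 FPKM without doxycycline, against 8.72 and 9.79 FPKM with it. The groups did not overlap, at means of 13.6 ± 0.466 FPKM without and 9.26 ± 0.755 FPKM with doxycycline (SD, n = 2 each). The log2 change was 0.53 (SE 0.10, limma adjusted p = 0.0121), and without the doxycycline library numbered 0 it missed the threshold (limma adjusted p = 0.0594, with a range of 0.00276 to 0.0594 over the alternatives). With its most abundant isoform alone the change was 1.31.

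Rela (chr19:5637172-5648137, plus strand) encodes RelA or p65, the main transactivating subunit of the canonical pathway. It measured 12.7 and 14.1 FPKM without doxycycline, against 8.68 and 10.0 FPKM with it. The means were 13.4 ± 0.976 FPKM without and 9.35 ± 0.949 FPKM with doxycycline (SD, n = 2 each), again with no overlap. The log2 change of 0.50 (SE 0.11, limma adjusted p = 0.0207) was the closest to the threshold of the called members. It was lost in 4 of 16 alternatives: without the doxycycline library 0 (limma adjusted p = 0.0907), without the no-doxycycline library 1 (0.0669), with isoforms of exact match only (0.0650) and with no filter on low values (0.0525). Its lowest value over the alternatives was 0.00287.

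Nfkb1 (chr3:135247619-135354716, minus strand) encodes p105, the precursor of the p50 subunit that pairs with RelA. Its level was 11.9 and 12.8 FPKM without doxycycline, against 12.1 and 13.0 FPKM with it. The groups overlapped almost fully, and the log2 change was -0.021 (SE 0.09, limma adjusted p = 0.864). It was 0.14 under TPM scaling and between -0.26 and 0.15 over the alternatives, none of which passed.

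The subunit RNA summed to 50.2 and 53.7 FPKM without doxycycline, against 35.1 and 39.2 FPKM with it. Nfkb1 made up 23.8% ± 0.125 of that sum without doxycycline and 33.8% ± 0.901 with it (SD, n = 2 each). Nfkb2 made up 19.9% ± 0.223 without and 13.4% ± 0.662 with doxycycline. Nfkb1 was thus the most abundant subunit with doxycycline, while without it the libraries of Relb, Rela and Nfkb1 ran from 13.2 to 13.9, from 12.7 to 14.1 and from 11.9 to 12.8 FPKM. The shares of Rela (25.8% without and 25.1% with doxycycline) and Relb (26.1% without and 24.9% with it) differed little, and that of Rel was 4.41% without and 2.71% with doxycycline. The shares are given as a description and were not tested. An exact permutation test of a single such value, 2 libraries against 2, cannot go below p = 0.333.

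**Figure D2:**
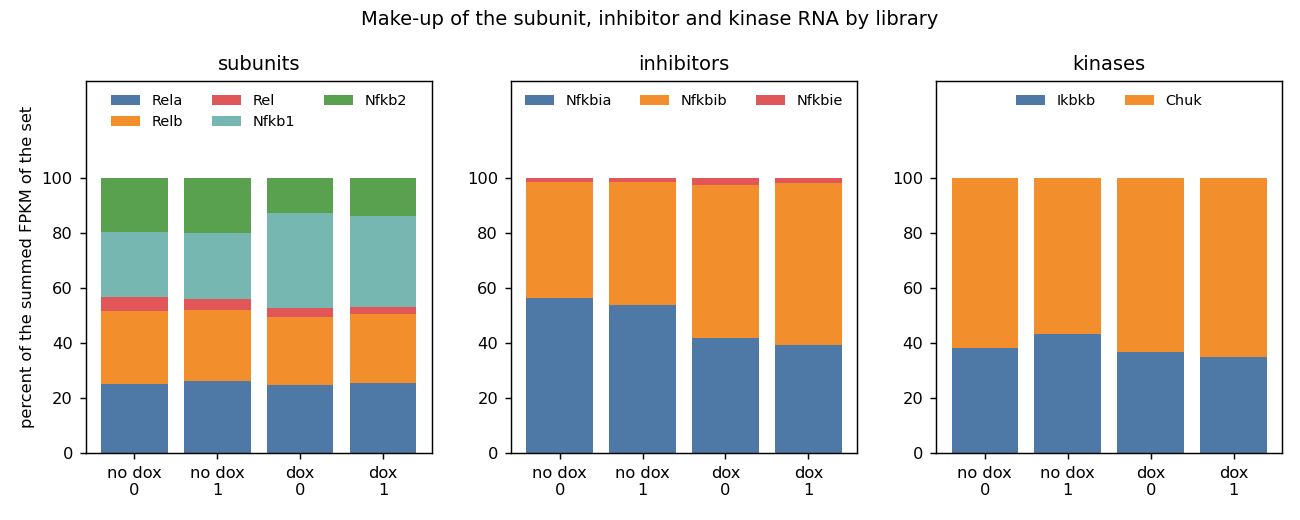
Percent of the summed FPKM that each gene contributes among subunits, inhibitors and kinases (stacked bars, 1 bar per library, numbered 0 and 1, no doxycycline on the left). Nfkb1 takes 23.8% of the subunit RNA without doxycycline and 33.8% with it, and Nfkbia takes 55.2% of the inhibitor RNA without doxycycline and 40.6% with it.

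Among the inhibitors, Nfkbia moved most. Nfkbia (chr12:56590346-56603175, minus strand) encodes IκBα, the inhibitor that is degraded and resynthesised in each round of canonical signalling. It was at 38.5 and 40.3 FPKM without doxycycline, against 17.0 and 18.6 FPKM with it. At means of 39.4 ± 1.26 FPKM without and 17.8 ± 1.11 FPKM with doxycycline (SD, n = 2 each) the ratio was 2.21, and the libraries were far from overlapping. The log2 change was 1.12 (SE 0.09, limma adjusted p = 0.00210), the largest of the 10 genes on this scale (the ratio of means was larger for Rel, at 2.28), with 1.15 between libraries numbered 0 and 1.09 between libraries numbered 1. It passed in all 16 alternatives, where it ranged from 1.06 to 1.29. Part of the assembled Nfkbia exons, 1492 bases, overlapped unnamed transcripts of the same strand.

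Nfkbib (chr7:29543270-29552531, minus strand) encodes IκBβ, which is degraded more slowly than IκBα. It was at 28.7 and 33.4 FPKM without doxycycline, against 22.5 and 27.8 FPKM with it. Both libraries without doxycycline were higher, but the spread within a condition was wide, at 31.0 ± 3.36 FPKM without and 25.2 ± 3.78 FPKM with doxycycline (SD, n = 2 each). The log2 change of 0.30 (SE 0.14, limma adjusted p = 0.138) did not pass, and under TPM scaling it did (0.46, limma adjusted p = 0.0213, with a range of 0.00803 to 0.528 over the alternatives). Its exons shared 42 bases with Sirt2 on the opposite strand.

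Nfkbie (chr17:45692652-45700118, plus strand) encodes IκBε and was close to the minimum of the test. It was at 0.996 and 1.15 FPKM without doxycycline, against 1.04 and 0.974 FPKM with it, and the groups overlapped. The log2 change was 0.062 (SE 0.13, limma adjusted p = 0.732), on 124 reads without and 102 reads with doxycycline in the libraries of known depth. With library medians set equal it was -0.00082, so its sign was not fixed.

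The inhibitor RNA summed to 68.2 and 74.9 FPKM without doxycycline, against 40.6 and 47.4 FPKM with it. Nfkbia made up 55.2% ± 1.89 of it without doxycycline and 40.6% ± 1.94 with it (SD, n = 2 each). Nfkbib made up 43.3% ± 1.83 without and 57.1% ± 2.30 with doxycycline. The more abundant inhibitor was therefore Nfkbia in both libraries without doxycycline and Nfkbib in both libraries with it.

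The 2 catalytic kinase genes were abundant and were not called. Ikbkb (chr8:23769567-23817061, minus strand) encodes IKKβ, the IκBα kinase of the canonical pathway. It was at 19.8 and 24.4 FPKM without doxycycline, against 20.3 and 19.4 FPKM with it. The groups overlapped, and the log2 change of 0.15 (SE 0.12, limma adjusted p = 0.372) rested on the no-doxycycline library 1, without which it was -0.00083.

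Chuk (chr19:44147824-44181970, minus strand) encodes IKKα, the p100 kinase. It measured 32.11 and 32.13 FPKM without doxycycline, against 34.8 and 36.1 FPKM with it. Both libraries without doxycycline were lower, but the log2 change of -0.14 (SE 0.08, limma adjusted p = 0.207) did not pass, and under TPM scaling it was 0.019. Kinase RNA summed to 51.9 and 56.5 FPKM without doxycycline, against 55.1 and 55.5 FPKM with it.

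Over the 10 genes, the libraries of 6 lay wholly higher and those of 1 wholly lower without doxycycline, where 73.1% of all genes did not overlap, 33.1% higher and 40% lower. Without doxycycline the order of mean levels was Nfkbia, Chuk, Nfkbib, Ikbkb, Relb, Rela, Nfkb1, Nfkb2, Rel and Nfkbie. Of these neighbours, Chuk and Nfkbib, Relb and Rela, and Rela and Nfkb1 overlapped between libraries. With doxycycline the order was Chuk, Nfkbib, Ikbkb, Nfkbia, Nfkb1, Rela, Relb, Nfkb2, Nfkbie and Rel, in which Rela and Relb, and Nfkbie and Rel, overlapped. Differences between the members' changes were not tested.

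**Figure D3:**
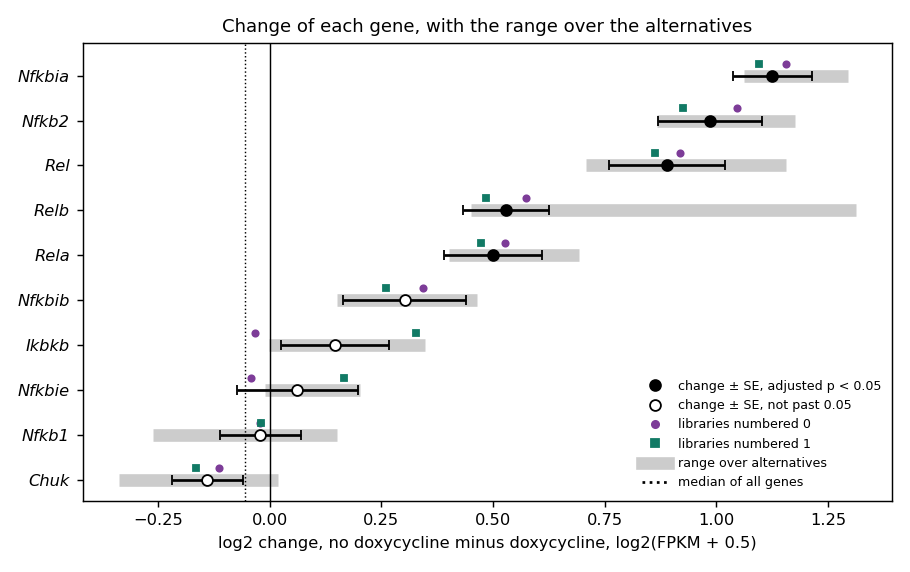
Log2 change of each gene without minus with doxycycline (points ± SE, filled where limma adjusted p is under 0.05), its value in the libraries numbered 0 and 1 (small symbols) and its range over the alternatives (grey bars). The 5 filled genes, from 0.50 for Rela to 1.12 for Nfkbia, stay above 0 throughout, while the bars of Nfkb1, Nfkbie, Ikbkb and Chuk reach both sides of 0.

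The authors' isoform values are estimates that split shared reads, and of 32943 isoforms tested limma called 0, with 2802 higher and 3251 lower at an unadjusted p under 0.05 and a lowest adjusted p of 0.0542. A minimum of 5 FPKM gave 1 call, lower. Member isoforms are therefore described only. The spliced 1481-nt Nfkbia isoform was at 28.9 and 30.3 FPKM without doxycycline, against 12.4 and 14.3 FPKM with it. Its longer 2203-nt form was at 6.55 and 7.79 FPKM without doxycycline, against 3.20 and 2.99 FPKM with it, so both forms were higher in both libraries. For Nfkb2, the 2986-nt isoform was at 8.10 and 8.68 FPKM without doxycycline, against 2.86 and 4.46 FPKM with it.

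Relb was carried mainly by a pair of forms of near-equal length that differed in their values. The 12-exon, 2209-nt isoform was at 7.78 and 7.84 FPKM without doxycycline, against 2.42 and 3.34 FPKM with it (log2 change 1.31, limma adjusted p = 0.143). The 11-exon, 2200-nt isoform was at 2.91 and 3.75 FPKM without doxycycline, against 3.60 and 3.62 FPKM with it (log2 change -0.11, limma adjusted p = 0.811). The difference in Relb thus lay in the 12-exon estimate, and neither isoform was called. For Rela, the 2716-nt isoform was at 9.85 and 8.88 FPKM without doxycycline, against 5.83 and 5.37 FPKM with it.

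Some isoforms followed the library number instead of the condition. The 2385-nt Rela isoform was at 1.50 and 5.11 FPKM without doxycycline, against 1.59 and 4.15 FPKM with it, high in both libraries numbered 1. The 4117-nt Nfkb1 isoform was at 4.58 and 2.20 FPKM without doxycycline, against 5.08 and 1.87 FPKM with it, and the 3716-nt form went the other way, at 3.23 and 6.06 FPKM without and 4.46 and 6.60 FPKM with doxycycline. Another Nfkb1 isoform, of 2520 nt and 13 exons, was at 2.07 and 1.98 FPKM without doxycycline, against 1.21 and 1.52 FPKM with it. The most abundant Ikbkb isoform (3580 nt) was at 9.65 and 13.9 FPKM without doxycycline, against 8.38 and 9.66 FPKM with it, and that of Chuk (3502 nt) at 9.99 and 11.9 FPKM without and 13.1 and 14.8 FPKM with doxycycline.

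**Figure D4:**
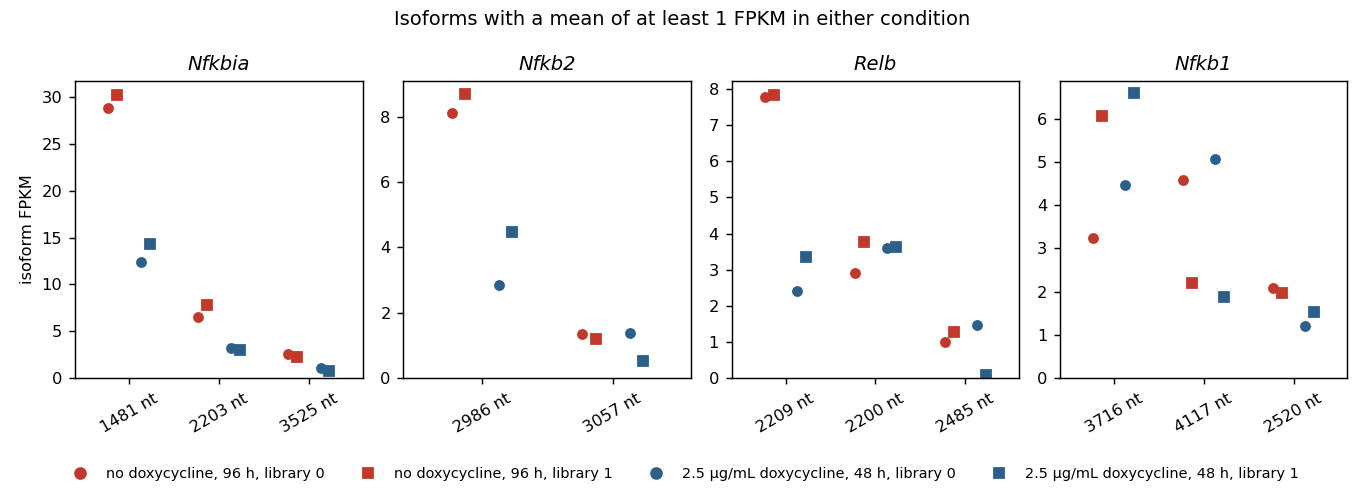
FPKM of the isoforms of Nfkbia, Nfkb2, Relb and Nfkb1 that averaged 1 FPKM or more in a condition, by length (no doxycycline red and left, doxycycline blue and right, circles for libraries numbered 0, squares for those numbered 1, linear axes from 0). The 2209-nt Relb isoform separates the conditions and the 2200-nt one does not, and the 3716-nt and 4117-nt Nfkb1 isoforms separate by library number.

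Genes around the 10 members were counted by list. Where a gene reached 1 FPKM in 1 condition only, its direction could be set by that filter, so counts and medians are over genes that reached it in both. Beside each count below stand the shares over all 13207 genes tested, 19.7% higher and 21.3% lower, at a median of -0.055. Those shares include genes that reached 1 FPKM in 1 condition only, and none was computed without them. No list was tested as a set. Of 8 partners of the kinases and atypical IκB genes 7 did so, and 3 were higher and 1 lower, with a median log2 change of 0.23. Ikbke, an IKK-related kinase, was at 3.07 and 3.15 FPKM without doxycycline, against 1.50 and 1.36 FPKM with it (log2 change 0.91, SE 0.11, limma adjusted p = 0.00448). Bcl3, a nuclear IκB protein that works with p50 and p52 dimers, was at 32.5 and 36.7 FPKM without doxycycline, against 20.02 and 21.4 FPKM with it (0.72, SE 0.10, limma adjusted p = 0.00575). Nkiras1 and Nkiras2 encode small GTPase-like proteins that bind IκBβ, and they went opposite ways. Nkiras1 was at 8.41 and 8.72 FPKM without doxycycline, against 5.15 and 4.94 FPKM with it (limma adjusted p = 0.00453). Nkiras2 was at 3.71 and 5.85 FPKM without doxycycline, against 7.63 and 9.79 FPKM with it (-0.82, SE 0.23, limma adjusted p = 0.0389), a call lost in 5 of 16 alternatives. Ikbkg, the scaffold NEMO of the kinase complex, was not called, at 6.29 and 7.67 FPKM without and 5.44 and 6.26 FPKM with doxycycline.

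Of 24 genes upstream in the canonical pathway 17 reached the minimum in both conditions, and 5 were higher and 0 lower, at a median of 0.0038. Irak2, a kinase adaptor of interleukin-1 and Toll-like receptors, was at 19.9 and 24.0 FPKM without doxycycline, against 3.48 and 4.02 FPKM with it (log2 change 2.40, SE 0.13, limma adjusted p = 0.00146). The TNF receptor Tnfrsf1b was at 6.04 and 5.08 FPKM without doxycycline, against 1.67 and 1.65 FPKM with it (1.48, SE 0.12, limma adjusted p = 0.00215). The other TNF receptor, Tnfrsf1a, was at 7.64 and 7.98 FPKM without doxycycline, against 2.61 and 2.78 FPKM with it (1.38, SE 0.09, limma adjusted p = 0.00180). The remaining calls were Tradd and Ripk1. Tlr2 and Irak4 reached the minimum without doxycycline only, at means of 1.64 and 2.096 FPKM without and 0.475 and 0.844 FPKM with doxycycline.

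In the non-canonical list of 9 genes, 5 reached the minimum in both conditions and 3 were higher and 0 lower, at a median of 0.63. Birc3, the ubiquitin ligase cIAP2, was at 8.88 and 7.20 FPKM without doxycycline, against 1.87 and 2.11 FPKM with it (log2 change 1.77, SE 0.13, limma adjusted p = 0.00199). Ltbr, the lymphotoxin β receptor, was at 4.50 and 6.39 FPKM without doxycycline, against 2.76 and 1.998 FPKM with it (1.04, SE 0.21, limma adjusted p = 0.0161, but 0.0575 with no filter on low values and 0.00193 to 0.0575 over the alternatives). Tnfrsf12a, the TWEAK receptor, was at 16.2 and 15.0 FPKM without doxycycline, against 9.64 and 10.2 FPKM with it (0.63, SE 0.09, limma adjusted p = 0.00636). Map3k14, the kinase NIK that acts on Chuk's product, was at 1.36 and 1.38 FPKM without and 0.990 and 0.962 FPKM with doxycycline and was not called.

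The ligase that marks IκB for the proteasome, and the proteins that help process p100 and p105, formed a list of 7 genes. All were tested, with 0 higher and 2 lower, at a median of -0.27. The scaffold Cul1 was at 41.7 and 47.9 FPKM without doxycycline, against 61.0 and 72.8 FPKM with it (log2 change -0.57, SE 0.13, limma adjusted p = 0.0212), and the ring protein Rbx1 at 34.4 and 44.8 FPKM without and 56.2 and 58.0 FPKM with doxycycline (-0.53, SE 0.14, limma adjusted p = 0.0342). These calls were lost in 5 and 6 of 16 alternatives. Cdc34, a ubiquitin-conjugating enzyme, was at 102 and 118 FPKM without doxycycline, against 131 and 154 FPKM with it, and was not called (limma adjusted p = 0.0668). It was called with equal library medians (limma adjusted p = 0.0177, with a range of 0.00311 to 0.337 over the alternatives), and the list then had 4 genes lower.

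Of 9 negative regulators, many of them induced by NF-κB itself, 6 reached the minimum in both conditions, with 4 higher and 0 lower at a median of 0.49. With the most abundant isoform alone, 0 of the list were called, with limma adjusted p of 0.109 for Tnip1, 0.225 for Cyld and 0.0579 for Tnfaip3. Tnip1, an adaptor of the deubiquitinase A20, was at 40.9 and 51.1 FPKM without doxycycline, against 22.2 and 26.0 FPKM with it (log2 change 0.92, SE 0.14, limma adjusted p = 0.00823). The deubiquitinase Cyld was at 15.2 and 15.6 FPKM without doxycycline, against 8.67 and 9.59 FPKM with it (0.72, SE 0.09, limma adjusted p = 0.00473). Tnip2 and Zc3h12a were the other calls. Tnfaip3, which encodes A20, was at 1.67 and 1.77 FPKM without doxycycline, against 0.507 and 0.691 FPKM with it, and reached the minimum without doxycycline only, so its difference is given as values.

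Among 29 textbook target genes only 9 reached the minimum, and 5 of these were higher and 0 lower, at a median of 0.83. The transcription factor Irf1 was at 19.3 and 21.7 FPKM without doxycycline, against 7.21 and 6.87 FPKM with it (log2 change 1.47, SE 0.10, limma adjusted p = 0.00168). Ier3, a survival gene, was at 15.6 and 11.4 FPKM without doxycycline, against 5.67 and 5.18 FPKM with it (1.23, SE 0.16, limma adjusted p = 0.00517). Junb, an AP-1 subunit, was at 30.8 and 35.8 FPKM without doxycycline, against 15.1 and 15.8 FPKM with it (1.08, SE 0.10, limma adjusted p = 0.00269). The adhesion gene Icam1 and the stress gene Gadd45b were the other calls. Sod2, Cflar, Ccnd1 and Bcl2l1 were tested and not called, at log2 changes of 0.0023, 0.020, 0.18 and -0.26. Sod2 was the most abundant of the list, at means of 169.3 FPKM without and 168.8 FPKM with doxycycline. The cytokine genes Tnf, Il1b, Cxcl1, Cxcl2, Ccl2, Ccl5 and Csf2 and the survival gene Bcl2a1b were listed at 0 in every library, and Il6 did not exceed 0.0465 FPKM.

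**Figure D5:**
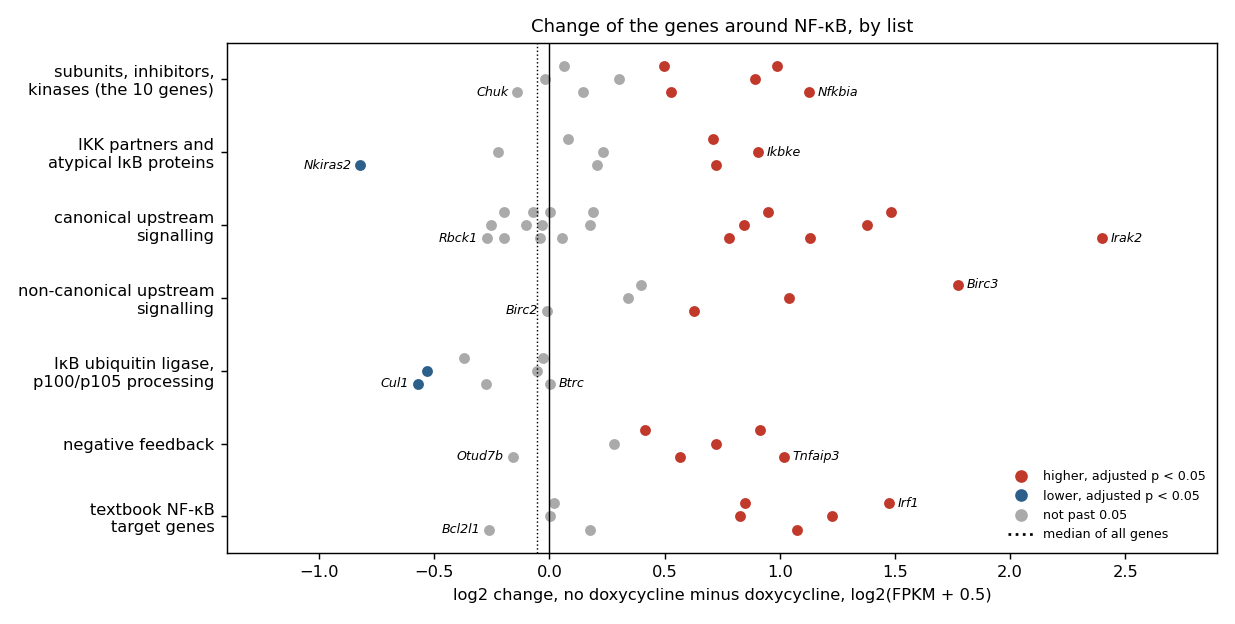
Log2 change without minus with doxycycline of each tested gene (1 point per gene, red higher and blue lower at limma adjusted p under 0.05, grey not called), with the 10 members on top and 1 row per list, genes that reached the minimum in 1 condition only included, and the extreme genes of each row named. The points reach from -0.82 for Nkiras2 to 2.40 for Irak2, and the ligase list holds no red point.

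Of 10 markers of lymphoid and myeloid cells, 3 reached the minimum in both conditions and were higher without doxycycline (Cd3e, Cd79a and Cd68). The summed level of the 10 was 23.6 and 21.8 FPKM without doxycycline, against 12.6 and 12.4 FPKM with it. Of that sum Cd68 alone was 12.9 and 11.96 FPKM without doxycycline, against 7.91 and 7.94 FPKM with it. Spi1 reached the minimum without doxycycline only, at 2.13 and 2.34 FPKM, against 0.793 and 0.732 FPKM with it. The defining leukocyte marker Ptprc did not exceed 0.0157 FPKM, Lyz2 was listed at 0 in every library, and Itgam was at 0.134 and 0.210 FPKM without and 0.638 and 0.716 FPKM with doxycycline. Fibroblast markers summed to 5.11 and 5.17 FPKM without doxycycline, against 4.44 and 4.30 FPKM with it, with 0 of 2 tested called and Col3a1 listed at 0. The part of other cell types in the members' values was not tested.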

How the data were processed

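PolyA RNA of 2 libraries per condition was measured by strand-specific sequencing (the UTP method, per the labels). The authors deposited isoform FPKM, made with TopHat2 2.0.9 and Cufflinks 2.1.1 on NCBIM37, per the submitters' processing notes, and a Cuffmerge assembly from which exon lengths, coordinates and class codes were read. Isoforms of at least 200 nt that matched or shared a junction with a named transcript were summed per symbol. Shorter isoforms held between 98.9% and 99.6% of a library's FPKM. In the table, 25 symbols had been turned into dates and were restored from the second deposited table. The kept isoforms summed to 0.449 and 0.485 M FPKM without doxycycline, against 0.509 and 0.535 M with it.

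Genes that averaged 1 FPKM or more in a condition were tested on log2(FPKM + 0.5) with limma 3.58.1 in R 4.3.3 (trend, two-sided, Benjamini-Hochberg at 0.05). The fit was also run on simulated data with independent libraries and few changed genes. That setting differs from these data, where 41% of genes were called, so it does not bear on the calls here. Read steps were sought in FPKM times effective length, for transcripts of at least 500 nt alone in their assembled locus. Values near 1 to 6 reads were scored over many offsets and depths. All scored values (100%) were whole within 0.1 read in the libraries numbered 1. Depths of 45.82 to 47.46 M fragments without and 45.68 to 47.34 M with doxycycline were equally good there. In those numbered 0 the best shares were 34.5% without and 34.0% with doxycycline. The chance level at a single fixed step is 20%, and that of a best share was not computed. Read numbers cover counting error only. Members, gene lists, tests and alternatives were chosen with earlier results of these data known. Named are all members, Ago2, the 3 tested genes per list that changed most in either direction, and up to 4 isoforms per member that averaged 1 FPKM or more. Other names were chosen after their values were seen. Tables were made with Python 3.11.15.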

Additional observations from a re-analysis of the deposited data

Results flagged for a closer look

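Within the assembled span of Nfkbia, signal lay in isoforms that carry no gene name and entered no comparison of genes. Nfkbia exons shared 1492 bases with unnamed transcripts of the same strand. Shared reads are split by estimation, so the values of these isoforms may not be independent of those of Nfkbia. A single-exon isoform of 2357 nt (chr12:56594514-56596870, minus strand, NCBIM37) averaged 1.98 ± 0.482 FPKM without doxycycline and 1.25 ± 0.00170 FPKM with it (SD, n = 2 each). A second one, of 6214 nt (chr12:56596957-56603170, minus strand), averaged 1.66 ± 0.0809 FPKM without doxycycline and 0.883 ± 0.0311 FPKM with it (SD, n = 2 each). Unnamed isoforms were to be listed here only where both libraries without doxycycline lay above both with it. These were the only unnamed isoforms in the members' assembled loci, so the rule left none out. The separation was still the rule of choice and is not given as a result. Among all genes tested, 33.1% lay wholly higher without doxycycline. Both isoforms are assigned to the assembled locus of Nfkbia and lie on its strand. Their difference between the conditions was not tested.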

How the results depend on the processing

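Over 29 genes and 16 alternatives, 412 values kept their direction and side of the threshold, 33 lost the call, 4 gained it and 9 changed sign. Nfkbia and Nfkb2 passed in every alternative. The sign changes were Nfkb1 under TPM (0.14), with exact-match isoforms only (0.15), without doxycycline library 1 or no-doxycycline library 0 (range over libraries left out -0.073 to 0.031) and with the median change set to 0 (0.034, an alternative chosen after seeing the data). Further ones were Chuk under TPM (0.019), Nfkbie with equal library medians (-0.00082) and without no-doxycycline library 1 (range -0.010 to 0.13), and Ikbkb without that library (range -0.00083 to 0.29).

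Counts of all genes called moved more than those of the members. Higher calls numbered 2608 as reported, 3996 under TPM, 1277 with exact-match isoforms and 1067 with the most abundant isoform, and lower calls 2809, against 1313 and 986 in the last 2 settings. With 1 library left out, higher calls ran from 1758 to 2054, lower calls from 1413 to 2485, and members called higher from 3 (without doxycycline library 0) to 5. Pathway list genes called lower numbered 3, against 7 with equal medians, 0 with no filter, exact-match isoforms or the most abundant isoform, and 0 to 4 with 1 library left out. Isoforms called lower numbered 0, or 1 at a minimum of 5 FPKM. The replicate block on library numbers, which the labels do not tie together (correlation of deviations 0.461 over 13207 genes), gave 4530 lower calls, 9 lower list genes, and Nfkbib (limma adjusted p = 0.00803) and Cdc34 (0.00311) past the threshold. Rel and Nfkbie gave no value at 5 FPKM, nor Nfkbie with exact-match isoforms or its most abundant isoform. With 2 libraries a condition and unknown depth in those numbered 0, a change of Nfkbie was not called, which does not show that it was unchanged.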
